A study of Mus musculus with 4 samples.

Results

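The cadherin genes of the frontonasal prominence (FNP), from which nose and snout form, were compared between Smchd1 wild-type (WT) and MommeD43 (MD43) mouse embryos. They were taken by name: every gene whose symbol is Cdh or Pcdh followed by a number alone, which gave 23 cadherins and 10 non-clustered protocadherins, 33 of the 33708 genes in the table. Clustered protocadherins, whose symbols carry a further letter, and the desmosomal, Fat and Dachsous cadherins were not members. Pcdh19 lies on the X chromosome and was not analysed here, because the authors left the sex chromosomes out.

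RNA was sequenced from the FNP of 4 embryos at E10.5, each with 29 somites, all on the FVB/NJ background. The 2 WT embryos were Smchd1+/+, labelled 1 female and 1 male. The 2 MD43 embryos, both labelled male, were homozygous for MommeD43, an ENU-induced missense allele of Smchd1 in its extended ATPase domain that all cells of the embryo carry. The second WT embryo is called female elsewhere in the study's records, and WT replicate 2 and MD43 replicate 2 shared a mother. SMCHD1 is a chromatin protein that silences genes, and the comparison asked which transcripts differ in the developing nose when it carries this change.

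Cadherins are membrane proteins that hold neighbouring cells together through calcium-dependent binding of their extracellular repeats. Classical cadherins bind catenins on the inner side of the membrane and through them the actin skeleton, and cells that carry the same cadherin tend to sort together. In the embryonic face, surface epithelium is known for Cdh1 and Cdh3, neural epithelium and mesenchyme for Cdh2, mesenchyme for Cdh11 and vessels for Cdh5. Protocadherins of the delta classes have other cytoplasmic tails and adhere weakly, and many are known for regional patterns in the nervous system.

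The table holds 1 value per genotype, the mean log2 RPKM of its 2 libraries, so no spread between embryos could be computed, and no test was made. RPKM counts reads per length of transcript and per total reads. The whole numbers behind these values were recovered as a product of the 2 libraries' read counts. Reads of a genotype are the square root of that product, with a library without reads entered as 0.9. The ± after each difference is the smallest standard error that counting these reads allows. It leaves out variation between embryos, which was not measured here. A difference is called beyond its counting interval where the 95% interval from this error does not hold 0. Differences are MD43 minus WT on the log2 scale. The values imply 22328791 reads in MD43 and 16055882 in WT as the geometric-mean depth of a library, so equal levels of a gene gave 1.39 times as many reads in MD43. Smchd1 itself was at 3.30 log2 RPKM in MD43 and 3.31 in WT. As the allele is missense, this level does not check the labels. The FNP mesenchyme genes Alx1, Alx4 and Msx1 were present in both genotypes, between 3.08 and 5.28 log2 RPKM.

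Of the 33 members, 23 had at least 10 reads in a genotype, between 43.4 and 4467 in the genotype with more, and 10 did not. Of the 23 members, 12 were lower in MD43 and 11 were higher. Their median difference was -0.01, against 0.01 over the 15377 genes of the table with 10 reads. In tissue RNA of this kind, fewer cells of a type and less RNA per cell cannot be told apart.

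At a 2-fold threshold, 1 of the 23 members was lower in MD43, namely Cdh20. Over all genes with 10 reads, 2.47% were 2-fold lower. None of the 23 was 2-fold higher, against 1.64% of all genes. At 1.5-fold, Cdh20 and Pcdh8 were lower, 2 of 23 where 6.43% of all genes were, and Cdh1 alone was higher, 1 of 23 where 4.24% were. With counts of 0 to 2 genes, nothing particular to the members is read from these shares. Differences beyond the 95% counting interval were found for 6 members in the lower direction, which is 26.1% against 24.2% of all genes. In the higher direction there were 5, which is 21.7% against 26.2%. The lower members were Cdh4, Cdh6, Cdh7, Cdh11, Cdh20 and Pcdh8, and the higher ones Cdh1, Cdh3, Cdh24, Pcdh1 and Pcdh7. Both shares lie near those of all genes, so the family as a whole showed no count of its own. The typical size of a member's difference, the median without its sign, was 0.25, and 0.16 for all genes. The members were not matched to all genes by level, so no excess is read from these values.

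**Figure D1:**
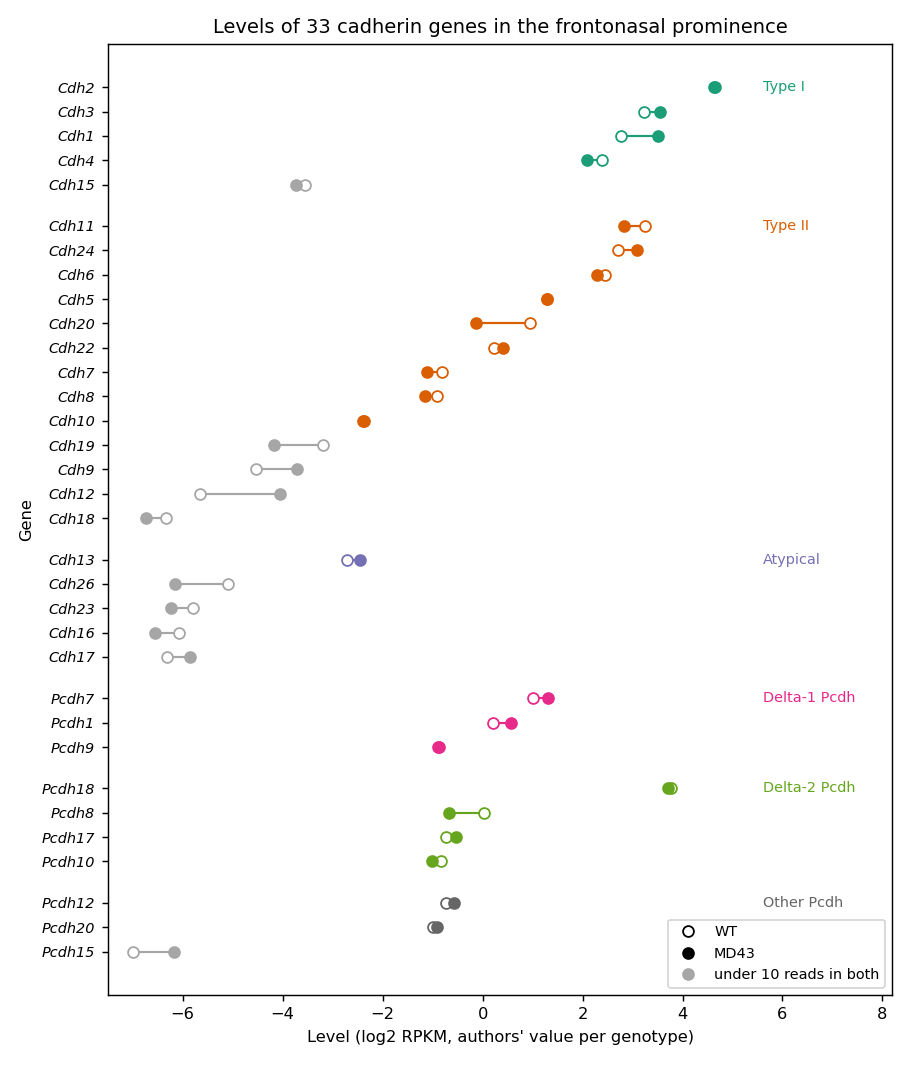
Level of each of the 33 genes in log2 RPKM (horizontal axis), by class and in order of WT level, with open circles for WT and filled circles for MD43. Each circle is the authors' single value for 2 embryos, so no error bar is drawn. Cdh2 lies farthest to the right in both genotypes, Cdh20 has the widest gap among the coloured members, and the 10 grey members had fewer than 10 reads in both genotypes.

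Within the family, a few genes held most of the message. In WT the highest members were Cdh2, Pcdh18, Cdh11, Cdh3, Cdh1 and Cdh24, and these 6 held 73.9% of the summed RPKM of the family in WT and 77.0% in MD43. The sum itself was 96.0 RPKM in WT and 99.4 RPKM in MD43. The median gene with 10 reads lay at 2.35 log2 RPKM in WT and 2.34 in MD43. Only 8 members lay above that level in WT, and 6 in MD43, where Cdh6 and Cdh4 had passed below it. Most cadherins of this tissue were therefore low in abundance, and the more abundant ones carried the smaller counting errors. Cdh11 lay next after Cdh2 and Pcdh18 in WT, while in MD43 Cdh3, Cdh1 and Cdh24 lay above it as well.

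The classical cadherins of type I bind strongly through a conserved tryptophan of their outermost repeat, and 4 of the 5 had 10 reads. Cdh2, or N-cadherin, the cadherin of the neural tube and of much mesenchyme, was the most abundant member. It was at 4.63 log2 RPKM in MD43 (4467 reads) and 4.65 in WT (3254 reads), a difference of -0.02 ± 0.02, with a 95% counting interval of -0.06 to 0.03. N-cadherin message thus differed between the genotypes by less than counting error.

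Cdh1, or E-cadherin, the adhesion molecule of epithelial junctions, lay farther above its WT level in MD43 than any other member with 10 reads. It lies on chromosome 8 at 106603351 to 106670246 of GRCm38, on the plus strand. Its level was 3.50 log2 RPKM in MD43 (1156 reads) and 2.77 in WT (501 reads), a difference of 0.73 ± 0.05 and a ratio of 1.66. Cdh3, or P-cadherin, a second epithelial cadherin, ends 46053 bases before Cdh1 on the same strand. It was at 3.54 log2 RPKM in MD43 (1140 reads) and 3.22 in WT (658 reads), a difference of 0.32 ± 0.05. Both epithelial cadherins were higher, in unequal measure, so that the RPKM of Cdh1 was 0.730 of that of Cdh3 in WT and 0.972 in MD43. Relative to E-cadherin, N-cadherin went from 3.68 times its RPKM in WT to 2.19 times in MD43.

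Cdh4, or R-cadherin, known from retina and brain, went the other way. Its level was 2.08 log2 RPKM in MD43 (686 reads) and 2.40 in WT (613 reads), a difference of -0.31 ± 0.06. Cdh15, or M-cadherin, a cadherin of developing skeletal muscle, had 5.48 reads in MD43, 4.47 in WT, and is not compared. Type I genes together made up 48.6% of the family's summed RPKM in WT and 52.4% in MD43.

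Type II cadherins share the catenin-binding tail and differ from type I in their adhesive interface, and many mark regions and cell groups of the nervous system. Of the 13, 9 had 10 reads, 6 lower and 3 higher in MD43, with a median difference of -0.16. Their sum was 28.5 RPKM in WT and 26.5 RPKM in MD43. The class held the member with the widest difference, Cdh20, and the mesenchymal Cdh11, beside Cdh24, which went in the opposite direction.

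Cdh20, known from neural tissue and neural crest, lies on chromosome 1 at 104768529 to 104995481 of GRCm38, on the plus strand. It was at -0.14 log2 RPKM in MD43 (81.2 reads) and 0.95 in WT (124 reads). The difference was -1.09 ± 0.15, a level 2.12 times as high in WT, with a 95% counting interval of -1.37 to -0.80. The threshold of 2-fold therefore lies inside its counting interval. With at most a 3-fold gap between both libraries of a genotype, the MD43 product can come only from 68 and 97 reads, and the WT product from 104 and 148 or from 74 and 208 reads. In the first case both WT libraries had more Cdh20 reads than either MD43 library although WT had the lower implied depth, and in the second case the read counts overlapped. Which embryo a count belongs to, and the depth of a single library, are not known.

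Those read pairs rest on the 3-fold limit, which was set after the data had been seen. Among genes with products of this size that allow 1 pair within a 9-fold gap, the larger count was typically 1.56 times the smaller in MD43 (411 genes) and 1.65 times in WT (446 genes). The gap was within 3-fold for 97.6% and 95.1% of them.

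The stretch of 100 bases before the start of Cdh20 is shown because it is the one gene past the threshold, beside that of Cdh7, a near relative on the same chromosome and strand. Both are from RefSeq on GRCm38.p6, chr1:104768420-104768519 and chr1:109982800-109982899, plus strand, in lower case. Capitals mark CAGGTG, an E-box that proteins of the Snail and Zeb families bind.
Cdh20: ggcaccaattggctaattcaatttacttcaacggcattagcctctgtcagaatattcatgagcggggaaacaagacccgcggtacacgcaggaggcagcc
Cdh7: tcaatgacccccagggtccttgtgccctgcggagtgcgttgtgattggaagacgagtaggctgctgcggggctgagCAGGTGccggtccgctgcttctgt

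Cdh7 holds that word 24 bases before this RefSeq start and again 83 bases before another of its RefSeq starts. Cdh20 does not hold it in the stretch shown. By its GENCODE position Cdh7 begins at 109982431, so its stretch lies inside the gene, whereas that of Cdh20 lies before the gene. Over the 250 bases before the start, CAGGTG or its reverse CACCTG was present in 2 of the 21 members with a promoter window, Cdh7 and Pcdh15, and in 19.4% of 27025 genes. Cdh1 and Cdh3 are not among the 21, as no window was available for them, and they were not searched. Cdh7, known from neural tube and crest-derived cells, was at -1.11 log2 RPKM in MD43 (104 reads) and -0.81 in WT (92.2 reads). Its difference was -0.30 ± 0.15, with a counting interval of -0.59 to -0.02 that ends close to 0. Within the 3-fold limit, the MD43 reads came from libraries of 101 and 107, and the WT reads from 81 and 105 or from 63 and 135. In both cases the read counts of the genotypes overlapped, and in the second both MD43 counts lay between the WT counts.

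Cdh19, a cadherin of crest-derived glia, lies beyond Cdh7 on chromosome 1 with 5.29 reads in MD43 against 7.48 in WT, too few to compare. Between the outer ends of Cdh20 and Cdh19, 6.21 Mb apart, 11 other genes had 10 reads. Of these, 7 were lower and 4 higher in MD43, from -0.77 to 0.95, with a median of -0.08. The lower level of Cdh20 was therefore not that of the whole interval.

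Cdh11, or OB-cadherin, is the cadherin of mesenchyme and of bone-forming cells, and lies on chromosome 8 at 102632095 to 102785642 of GRCm38, on the minus strand. It was at 2.84 log2 RPKM in MD43 (1421 reads) and 3.25 in WT (1363 reads), a difference of -0.42 ± 0.04 and a WT level 1.33 times as high. Its counting error was among the smallest of the family, and its interval of -0.49 to -0.34 does not reach 2-fold. Cdh6, a cadherin of kidney, neural tube and early crest, was at 2.28 log2 RPKM in MD43 (981 reads) and 2.44 in WT (787 reads), a difference of -0.16 ± 0.05.

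Cdh24, a less studied type II cadherin that binds catenins, was the one type II gene beyond its counting interval in the higher direction. Its level was 3.09 log2 RPKM in MD43 (663 reads) and 2.71 in WT (367 reads), a difference of 0.38 ± 0.07. Cdh5, or VE-cadherin, the cadherin of endothelial junctions, was at 1.28 log2 RPKM in MD43 (228 reads) and 1.29 in WT (165 reads), a difference of -0.01 ± 0.10. Vessel adhesion message was thus close in level between the genotypes, although the WT reads of Cdh5 can come only from 107 and 253 within the 3-fold limit.

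The remaining type II genes with 10 reads are known mainly from brain and lay within their counting intervals. Cdh22 was at 0.41 log2 RPKM in MD43 (110 reads) and 0.23 in WT (69.9 reads). Cdh8 was at -1.16 (77.3 reads) and -0.91 (65.9 reads), a difference of -0.25 ± 0.17. Cdh10 was at -2.37 (43.4 reads) and -2.39 (30.7 reads). Each of these 3 genes thus rested on few reads, and each interval would also hold a difference as large as that of Cdh11 in 1 direction or the other. Within the 3-fold limit, Cdh10 had 33 and 57 reads in the MD43 libraries and 23 and 41 in WT.

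**Figure D2:**
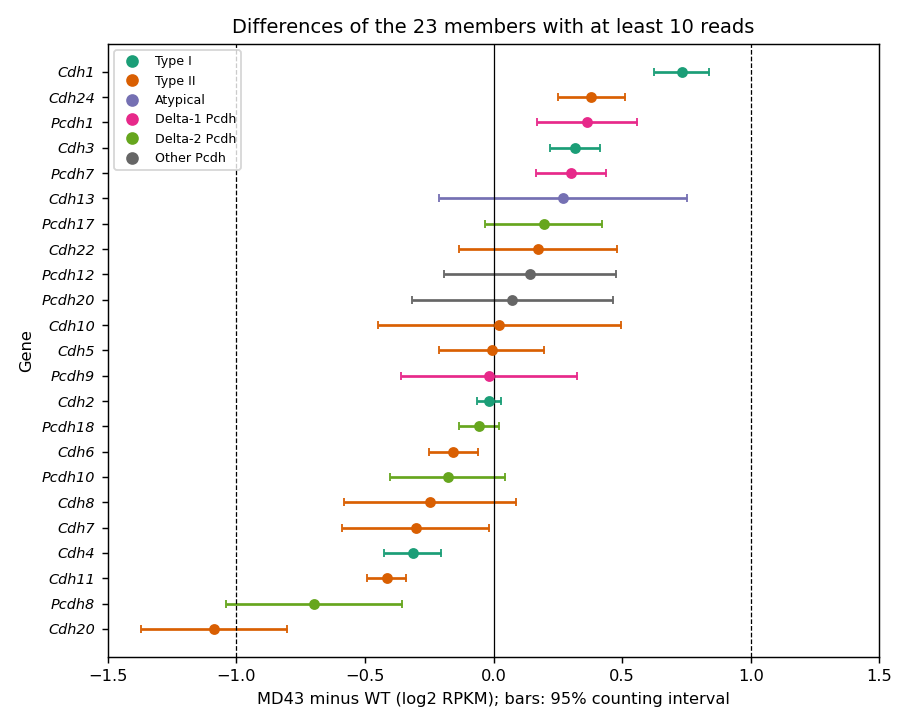
Difference MD43 minus WT in log2 RPKM (horizontal axis) for the 23 members with at least 10 reads, in order, coloured by class. Bars are 95% counting intervals, which leave out variation between embryos, and dashed lines mark 2-fold. Cdh20 alone lies beyond a dashed line, at -1.09, and Cdh1 is the farthest to the right, at 0.73.

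Atypical cadherins lack the classical catenin-binding tail or differ from it, and 1 of the 5 had 10 reads. Cdh13, or T-cadherin, which is held to the membrane by a lipid anchor, was at -2.44 log2 RPKM in MD43 (46.1 reads) and -2.71 in WT (27.5 reads), a difference of 0.27 ± 0.25. For Cdh16, a kidney cadherin, no read was found in any library. Cdh17, the cadherin of liver and intestine, had 1 and 3 reads in the MD43 libraries and none in WT. Message of the organ-restricted members was therefore at or near the detection limit in this tissue.

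The other members under 10 reads were likewise few in reads. Cdh23 and Pcdh15, which together form the tip links of inner ear hair cells, had 5 and 7.35 reads in MD43 and 4.90 and 3 in WT. Cdh9 had 6 reads in MD43 against 2.45 in WT, and Cdh12 had 8.49 against 2. Cdh26 had 1 read in 1 MD43 library and 1 and 2 reads in the WT libraries, and Cdh18 had 1 read in 1 MD43 library only. Such counts show no more than that a transcript was present, and fold changes of these genes are not given.

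Protocadherins of the delta1 class carry a further conserved tail motif that those of delta2 lack, and all 3 had 10 reads. Pcdh7 was at 1.31 log2 RPKM in MD43 (585 reads) and 1.01 in WT (342 reads), a difference of 0.30 ± 0.07. Pcdh1, known from airway epithelium, was at 0.57 in MD43 (291 reads) and 0.21 in WT (163 reads), a difference of 0.36 ± 0.10. Pcdh9, a brain protocadherin, was at -0.90 in MD43 (81.3 reads) and -0.88 in WT (59.1 reads), a difference of -0.02 ± 0.17. Pcdh7 and Pcdh1 lay beyond their counting intervals and Pcdh9 did not.

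Exons of Pcdh7 share 2235 bases with 4932441J04Rik on the opposite strand, with 162 reads in MD43 against 61.2 in WT. The libraries were stranded, but whether the counting used the strand is not stated in the sources used here. If it did not, reads of both genes in the shared bases cannot be told apart, and the value of Pcdh7 is uncertain for that reason.

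Of the 4 delta2 protocadherins, 3 were lower and 1 higher in MD43. Pcdh18 was by far the most abundant protocadherin, at 3.70 log2 RPKM in MD43 (1561 reads) and 3.76 in WT (1168 reads), a difference of -0.06 ± 0.04. It held 13.1% of the family's summed RPKM in MD43 and 14.1% in WT, next after Cdh2. The main protocadherin of the tissue was thus near its WT level.

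Pcdh8, also known as paraxial protocadherin, which takes part in cell movement and somite formation, lies on chromosome 14 at 79766775 to 79771312 of GRCm38, on the minus strand. It was at -0.68 log2 RPKM in MD43 (63.3 reads) and 0.02 in WT (73.8 reads), a difference of -0.70 ± 0.17 and a WT level 1.62 times as high. Within the 3-fold limit its MD43 product comes only from 45 and 89 reads and its WT product from 69 and 79. The highest single count was therefore in an MD43 library and the lowest as well, so the read counts of the genotypes overlapped before depth was taken into account. Its exons share 436 bases with Gm9748 on the opposite strand, with 5.10 reads in MD43 against 4.58 in WT.

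Pcdh10 and Pcdh17, both known from axon tracts of the brain, differed by -0.18 ± 0.11 (176 and 143 reads) and 0.19 ± 0.12 (200 and 125 reads). Pcdh10 was at -1.01 log2 RPKM in MD43 and -0.83 in WT, and Pcdh17 at -0.54 in MD43 and -0.73 in WT. Of the protocadherins outside the delta classes, Pcdh12, an endothelial protocadherin, was at -0.58 log2 RPKM in MD43 (90.4 reads) and -0.72 in WT (58.9 reads). Pcdh20 was at -0.92 (64.9 reads) and -0.99 (44.4 reads). All 4 lay within their counting intervals.

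**Figure D3:**
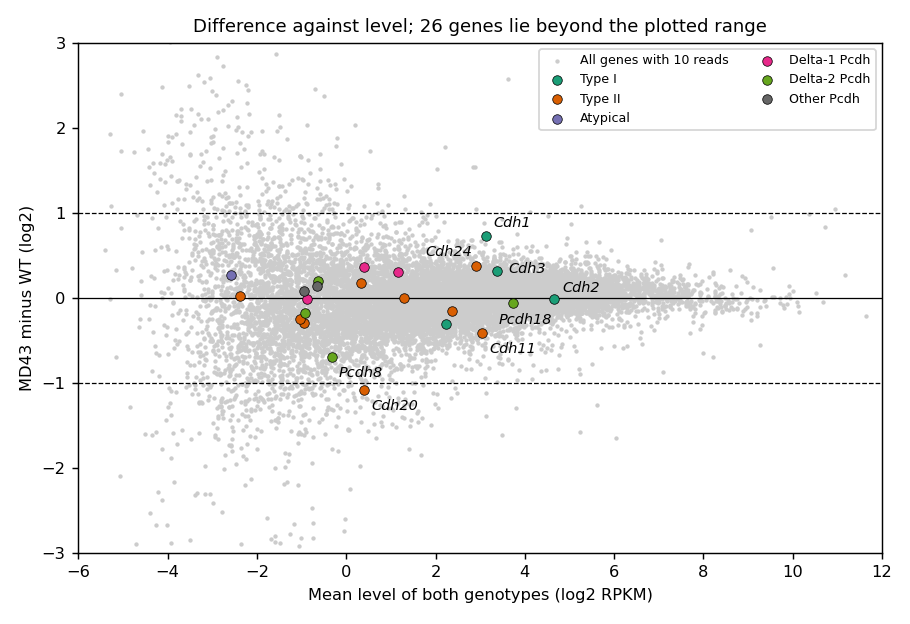
Difference MD43 minus WT (log2, vertical axis) against the mean level of both genotypes (log2 RPKM, horizontal axis) for the 15377 genes with at least 10 reads (grey) and the 23 members among them (coloured by class). Dashed lines mark 2-fold, and 26 genes lie beyond the axes. Cdh1, Cdh11 and Cdh20 lie toward the edge of the grey cloud at their level, while Cdh2 and Pcdh18 lie near 0.

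Next, the partners of the cadherins were examined. Of 10 catenins and related linkers, 9 had 10 reads and their median difference was 0.02. Ctnnb1, or beta-catenin, was at 8.10 log2 RPKM in MD43 and 8.09 in WT, and the alpha and p120 catenins Ctnna1 and Ctnnd1 differed by 0.05 and 0.02. The widest differences were in the less abundant Arvcf, at 0.92 ± 0.25 on 61.2 and 23.2 reads, and in the neural catenins Ctnna2, at -0.38 ± 0.09, and Ctnnd2, at -0.14 ± 0.06. The core catenins were thus closer in level between the genotypes than several cadherins were.

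Nectins and afadin, which build adherens junctions beside the cadherins, had a median of 0.08 over 5 genes. Nectin1 was higher in MD43, at 0.46 ± 0.05, and Nectin3 lower, at -0.30 ± 0.03, while Nectin2, the most abundant, was at 0.16 ± 0.04. Of 9 large cadherins of planar polarity, 7 had 10 reads, with a median of 0.11, and Celsr1 was at 0.48 ± 0.04, Fat2 at 0.42 ± 0.20 and Fat3 at -0.28 ± 0.06. Fat1, the most abundant of them, was at 0.11 ± 0.02. Desmosomal cadherins, which anchor keratin in epithelia, had 10 reads in 2 of 5 genes, and both were higher: Dsg2 by 0.94 ± 0.10 and Dsc2 by 0.38 ± 0.10.

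The Snail and Zeb proteins bind E-boxes of the Cdh1 gene and repress it. Of the 5 genes, 4 were lower in MD43, all beyond their counting intervals, and the median was -0.34. Zeb2 differed by -0.47 ± 0.05, Zeb1 by -0.36 ± 0.04, Snai2 by -0.34 ± 0.11 and Snai1, the most abundant, by -0.15 ± 0.07. Snai3 was higher in MD43, by 2.32 ± 0.77 and also beyond its counting interval, on only 13.9 reads in MD43 against 2 in WT. These genes are also expressed in mesenchyme, and their part in the level of Cdh1 was not tested.

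Markers of cell types were then set beside the members. All 12 surface epithelial markers had 10 reads and none was at 0 in either genotype. Their median difference was 0.54, 8 were higher beyond the counting interval and none lower, and their summed level went from 140 RPKM in WT to 207 RPKM in MD43. Cldn6 and Cldn7, claudins of epithelial tight junctions, were both higher by 0.87, and the keratins Krt8 by 0.70 and Krt18, the most abundant marker, by 0.49, while Krt19, Grhl3, Ovol1 and Wnt6 lay within their intervals, between -0.15 and -0.07. Cdh1 at 0.73 lay inside the range of these markers, and their part in the higher Cdh1 and Cdh3 was not tested.

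Of 8 facial mesenchyme markers, 6 were lower and 1 higher beyond the counting interval, the median was -0.25, and the summed level was 133 RPKM in WT and 115 RPKM in MD43. Col1a1, a collagen of connective tissue and bone, differed by -1.25 ± 0.08, Twist1 by -0.39 ± 0.05 and Pdgfra by -0.33 ± 0.05, but Alx1 by 0.17 ± 0.05. Msx1, the most abundant, differed by -0.17 ± 0.03. Cdh11 at -0.42 lay beside Twist1, and the part of these markers in it was not tested. Of 12 endothelial markers the median was -0.08, with 2 lower and 1 higher beyond their intervals, and the sum was 25.8 RPKM in WT and 24.4 RPKM in MD43. Sox18 differed by -0.46 ± 0.12 and the receptor Kdr by -0.33 ± 0.08, but Plvap by 0.47 ± 0.13, and the most abundant, the tight junction gene Cldn5, by -0.11 ± 0.12.

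Of the 9 neural tube markers in the table, 5 were lower and 3 higher beyond their intervals, with a median of -0.13 and a sum of 396 RPKM in WT and 374 RPKM in MD43. Fabp7, of radial glia, differed by -0.89 ± 0.05, the eye and forebrain regulator Pax6 by -0.35 ± 0.03, and Lhx2, also of forebrain and eye, by 0.49 ± 0.02. Sox2, a gene of neural progenitors and the most abundant of the list in WT, differed by -0.13 ± 0.03. Of the 8 young neuron markers, 3 were lower and 2 higher beyond their intervals, with a median of -0.08. The neurofilament genes Nefl and Nefm differed by -0.74 ± 0.13 and -0.52 ± 0.11, and the regulator Neurod1 by 0.38 ± 0.12. The sum of this list, 104 RPKM in WT and 103 RPKM in MD43, was mostly that of the tubulin gene Tubb3, at 77.8 RPKM and 79.0 RPKM. Genes of both neural lists thus differed in both directions, and their part in the lower Cdh20 and Cdh4 was not tested.

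Of 5 markers of crest and glia in the table, 3 had 10 reads. Ednrb, a receptor of migrating crest cells and pigment cell precursors, differed by -1.27 ± 0.12 and Sox10, which defines migrating crest and glia, was at 6.24 reads in MD43 against 10.8 in WT, while Erbb3 was higher, at 0.92 ± 0.08. The part of these cells in the lower Cdh20 was not tested. All 6 red blood cell markers were higher in MD43, with a median of 0.86, and their sum went from 3059 RPKM in WT to 5817 RPKM in MD43. The embryonic globin Hbb-bh1, the most abundant, was higher by 1.04 ± 0.01, the membrane transporter Slc4a1 by 1.52 ± 0.08 and the regulator Klf1 by 0.88 ± 0.19. Of 3 skeletal muscle markers none had 10 reads.

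**Figure D4:**
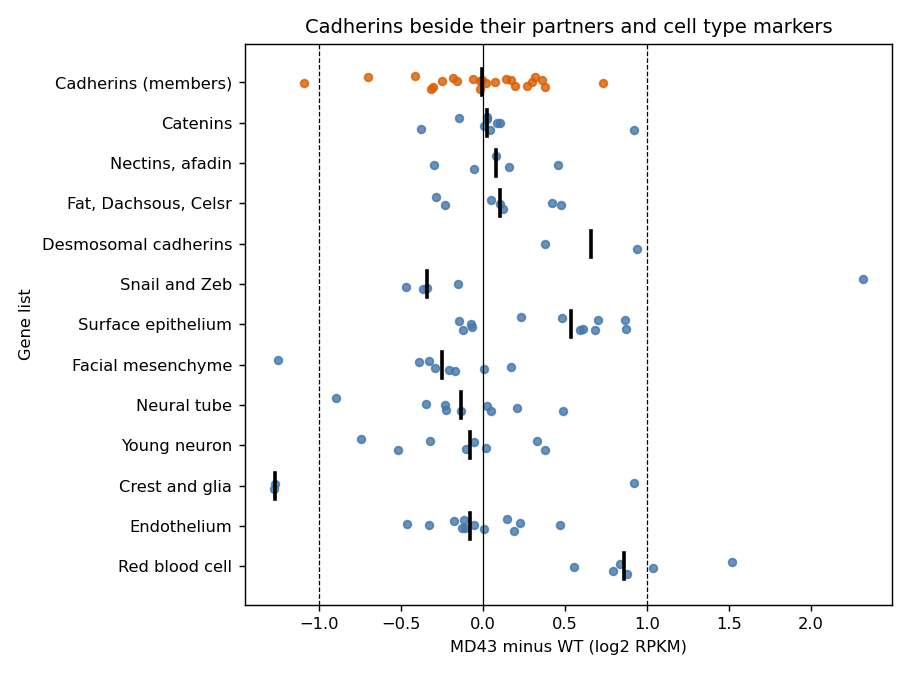
Difference MD43 minus WT in log2 RPKM (horizontal axis) for genes with at least 10 reads, by list: the 23 cadherin members (orange), their partners and regulators, and cell type markers (blue). Each point is a gene, moved up or down at random within its row, black bars are medians, and dashed lines mark 2-fold. The medians of the members and of the catenins lie near 0, and those of surface epithelium and red blood cell lie to the right, at 0.54 and 0.86.

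The members lie on 10 chromosomes, 8 of them on chromosome 8 and 5 each on chromosomes 14 and 15. On chromosome 8, from Cdh5 to Cdh1, the 67 other genes with 10 reads had a median of 0.02, so that the higher levels of Cdh1 and Cdh3 were not shared by the stretch as a whole. On chromosome 15 no other gene between Cdh6 and Cdh18 had 10 reads. Exons of 5 members overlap a gene on the opposite strand and those of Cdh12 overlap Gm49685 on the same strand, so reads in the shared bases are uncertain.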

How the data were processed

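FNP libraries of stranded poly(A) RNA were made from 100 ng of total RNA of each of 4 embryos. The authors trimmed reads (Trim Galore 0.4.4), mapped them with HISAT2 2.0.5 to GRCm38 and quantified them in SeqMonk. The authors deposited log2 RPKM, scaled to library size and to the length of the transcript, as 1 merged column per genotype. Another 3 columns hold the authors' own comparison (log fold change, FDR and mean level) and were not used.

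Genes were joined to GENCODE M21 by name and position (33101 of 33708 rows). Each value, scaled by exon length and depth, gave a product of both libraries' reads, whole within 0.05 for 99.9% of products under 1000 in both genotypes. The recovery was tested on simulated data. A minimum of 10 reads in a genotype was set. Counting intervals (95%) come from the geometric-mean reads, cover counting error only and are lower limits. Without values per library, no test could be made: p-values and SDs are not given.

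Members with 10 reads are given with both values, and members 2-fold apart or beyond counting error also with their difference and its error. Of other lists, the widest differences and the most abundant gene are given. The members and lists were chosen with earlier results of these data known. In the mesenchyme list, 1 gene is not reported here and is left out of its counts, median and sums. Alternatives were minimums of 50 reads or none, 1.5-fold, pseudocounts of 0.1 and 1 RPKM and centring. Python 3.11.15, numpy 2.4.6 and pandas 2.3.3 were used.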

Additional observations from a re-analysis of the deposited data

How the results depend on the processing

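The count of members 2-fold apart was 1 as reported and remained 1 with a minimum of 50 reads, a pseudocount of 0.1 RPKM or centring on the median of all genes with 10 reads, and it was Cdh20 each time. Without a minimum of reads it was 3, with Cdh20 and Cdh26 lower and Cdh12 higher, and the 2 added genes had few reads. At 1.5-fold it was also 3. With a pseudocount of 1 RPKM it was 0, because the pseudocount shrinks differences of genes near 1 RPKM. With both genotypes set to at least 3 reads, an alternative chosen after seeing the data, it was 2, Cdh20 and Cdh12. The median difference lay between -0.02 and -0.01 under all 6 alternatives run for it. Of the 23 differences, none changed sign. With a pseudocount of 1 RPKM, 2 of them shrank by more than their counting error. That of Cdh20 went from -1.09 to -0.62 and that of Pcdh8 from -0.70 to -0.31. No paired analysis was possible because both libraries of a genotype were merged, and leaving out a replicate was not possible for the same reason. Depth limits the members under 10 reads, for which absence cannot be told from low abundance.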
